A study of Aspergillus oryzae with 20 samples.

Results

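The comparison described here set a strain of Aspergillus oryzae lacking both admA and admB (ΔadmAΔadmB) against a strain lacking admA alone (ΔadmA), and asked which transcripts differ when admB is lost from a fungus already without admA. It rests on the libraries titled with these genotypes, 5 of each, 10 of the 20 in the series. A. oryzae is the filamentous fungus used for koji. All strains derive from RIB40 and share the genotype del-pyrG with pyrG+ and ligD+, so the pyrG deletion and the restored genes are present in the controls too. ΔadmA carries del-admA in addition, and ΔadmAΔadmB carries del-admA and del-admB. The 5 deletion control libraries and the 5 libraries of a strain lacking admB alone (ΔadmB, del-admB) were used as reference points. Each culture held 76.5 g of solid medium, with 70 mL of water to 100 g of wheat bran, in a 1 L flask, and grew from conidia at 30 °C for 72 h. Libraries were prepared with a TruSeq kit from 4 µg of total RNA of the whole pulverised culture. Nothing in the labels says whether the libraries of 1 strain stem from different flasks, or whether a strain is 1 clone, so the p-values reflect only how these libraries vary, and that variation may be technical.

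The adm genes encode proteins of the ADAM family, which carry a disintegrin and a metalloprotease domain and are anchored in a membrane. In animals ADAM proteases cut the outer parts of other membrane proteins, releasing ligands and receptors from the cell surface. A filamentous fungus on wheat bran secretes enzymes that break down plant polysaccharides, remodels its own wall as hyphae extend, and makes secondary metabolites from clustered genes, and gene lists for these activities are described below.

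Levels are RPKM, reads scaled to gene length and to the mapped reads of a library, and all differences are on the log2(RPKM + 1) scale, on which changes of low genes come out too small. A gene was tested where at least 5 of the 10 libraries reached 1 RPKM, which left 10224 of 12074 genes, 698 of them with a symbol. The transcript of admA (AO090138000114) had no RPKM above 0 in ΔadmAΔadmB, and in ΔadmA it was above 0 in replicate 4 alone, at 0.09 RPKM (difference -0.03, two-sided exact permutation test, p = 1, n = 5). It was low in the control as well, where replicates 1 to 5 held 0.25, 0.10, 0, 0.13 and 14.24 RPKM. The level of admB was not analysed here. The marker pyrG differed by 0.37 between the strains (SE 0.55, limma adjusted p = 0.91). The sum of RPKM ranged from 3974010 to 5163350 over the 10 libraries, between 729 and 1179 genes were listed at 0, and the 20 most abundant genes took 17.97% to 34.5% of the sum. Depth in reads is unknown. Step sizes of the low values divided the libraries into 2 sets of unstated origin, with ΔadmAΔadmB replicates 1, 4 and 5 and ΔadmA replicates 1, 4 and 5 in set 1 and replicates 2 and 3 of both strains in set 2. The first principal component, 27.3% of the variance, spread the libraries within each strain, from -80.0 to 66.9 in ΔadmAΔadmB and from -69.6 to 68.8 in ΔadmA. In ΔadmA it fell with replicate number, at 68.8, 18.5, -1.88, -42.6 and -69.6 in replicates 1 to 5. In ΔadmAΔadmB it was 49.4, -10.3, 66.9, -50.2 and -80.0, lowest in replicates 4 and 5. On the second, 10.7% of the variance, ΔadmA lay from -66.0 to -22.1, apart from ΔadmAΔadmB at -12.8 to 42.2 and the control at -5.49 to 19.2.

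Loss of admB in the ΔadmA background went with changes in 192 genes, 1.88% of those tested (limma, Benjamini-Hochberg adjusted p under 0.05), which are referred to as called. In RNA of a whole culture, fewer cells of a kind and less RNA per cell cannot be told apart. Of the 192, 93 were higher in ΔadmAΔadmB (0.91%) and 99 were lower (0.968%). The difference was at least 1 log2 unit in 169 of the 192 and at least 3 log2 units in 22. Over all tested genes the shares were 13.9% and 0.86%. The 192 were chosen by this difference, so these counts and those of overlap are a description. In 119 of the 192 every ΔadmAΔadmB value lay outside the 5 ΔadmA values, as was so in 261 of all tested genes (2.55%). This held for 55 of the 93 higher genes, beside 1.36% of tested genes in that direction, and for 64 of the 99 lower genes, beside 1.19%. The fit takes the spread from all 4 strains. With the spread taken from the 10 compared libraries alone 6 genes passed, and within set 1 alone 2 passed. The first of these fits leaves each difference as it was, so no sign could turn. Within set 1 and within set 2 all 192 kept their sign, but those fits reuse libraries that chose the genes. The count was 302 without ΔadmA replicate 1, and it was 101, 107 and 111 without ΔadmA replicates 3, 4 and 5 and 100, 111 and 110 without ΔadmAΔadmB replicates 2, 4 and 5.

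For most of these genes it was ΔadmA, not the double deletion, that lay away from the control. The double deletion was taken as near the control level where its mean lay between the lowest and highest of the 5 control values, and by this measure 136 of the 192 were near the control, 20 above it and 36 below it. Over all tested genes 8962 (87.7%) were near. The ΔadmA mean was within the control range in 19 of the 192, against 8484 of all tested genes (83.0%). Thus 131 genes had ΔadmAΔadmB near the control and ΔadmA outside it, 14 had the opposite arrangement, 5 had both strains near and 42 had neither. Across all tested genes the first arrangement held for 1169 and the second for 691, while 7793 had both strains near and 571 had neither. Of the 93 higher genes, 89 had ΔadmA below the control range and 72 had ΔadmAΔadmB near it. Of the 99 lower genes, 84 had ΔadmA above the range, 64 had ΔadmAΔadmB near it and 35 had ΔadmAΔadmB below it. The median difference between ΔadmAΔadmB and the control was 0.20 in the higher genes and -0.44 in the lower genes, beside 1.78 and -1.60 against ΔadmA. Since both positions use the libraries that chose the genes, they are given as a description. Against the control directly, no gene passed in ΔadmAΔadmB (limma, 0.0%; 495 genes at an unadjusted p under 0.05, smallest adjusted p = 0.32).

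The libraries of ΔadmA did not contribute evenly. In the 93 higher genes the median level relative to the control mean was -0.54 in ΔadmA replicate 1 and -1.38, -1.76, -2.21 and -1.80 in replicates 2 to 5. In the 99 lower genes it was 0.50 in replicate 1 and 1.26 to 1.30 in the other 4. Replicate 1 thus stood between the other ΔadmA libraries and the control, and in 59 of the 192 genes (30.7%) it lay inside the range of the ΔadmAΔadmB values, where the other ΔadmA libraries did so in 1 to 9 genes. Among the double deletion libraries, replicate 3 lay inside the ΔadmA range in 41 genes (21.4%) and the others in 7 to 20.

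**Figure D1:**
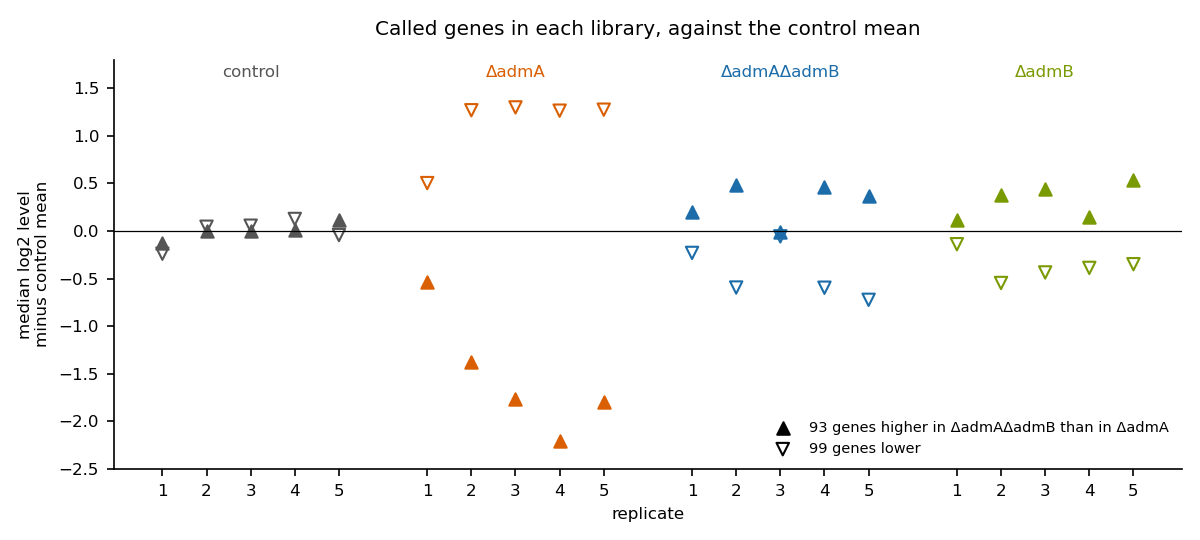
Median level of the 93 genes higher (filled triangles) and the 99 genes lower (open triangles) in ΔadmAΔadmB than in ΔadmA, as log2(RPKM + 1) minus the control mean, for each of the 20 libraries by strain and replicate. ΔadmA replicates 2 to 5 lie farthest from 0, ΔadmA replicate 1 lies at -0.54 and 0.50, and the double deletion libraries lie between -0.72 and 0.48.

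Of the 192 genes 4 carry a symbol, out of 698 tested. With the spread from the 10 compared libraries alone none of the 4 passed (limma adjusted p = 0.097 to 0.21). The one of the 4 that rose was hdaA (AO090003001321), named for a histone deacetylase, an enzyme that removes acetyl groups from histones. Its level was 2862, 5973, 3881, 4656 and 3632 RPKM in ΔadmAΔadmB replicates 1 to 5 and 1447, 1370, 2470, 1739 and 1157 RPKM in ΔadmA. Every double deletion library exceeded every ΔadmA library. The difference was 1.37 (SE 0.29, 95% interval 0.76 to 1.98, limma adjusted p = 0.019). The control held 1526, 2055, 1632, 1219 and 1041 RPKM, so here ΔadmA was at the control level and the double deletion was above it, with a difference from the control of 1.49 (SE 0.29, adjusted p = 0.38). ΔadmB held 1340, 2847, 4005, 2166 and 3023 RPKM, with 4 of 5 libraries above every control library and a difference of 0.79 from the control (adjusted p = 0.59). The call of hdaA was lost without ΔadmAΔadmB replicate 2 (adjusted p = 0.064), without ΔadmAΔadmB replicate 4 (0.054) and without ΔadmA replicate 5 (0.058).

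The gene erg5 (AO090003000954) is named for the C-22 desaturase of sterols, a late enzyme of ergosterol synthesis, and had the largest fall of all tested genes. It stood at 0.37, 0.59, 45.1, 0.32 and 0.55 RPKM in ΔadmAΔadmB replicates 1 to 5 and at 18.6, 118, 295, 218 and 322 RPKM in ΔadmA. Replicate 3 of the double deletion exceeded replicate 1 of ΔadmA, so the groups overlapped through that pair, while the other 4 double deletion libraries were below 1 RPKM. The fall was -5.57 (SE 1.13, adjusted p = 0.014). Control libraries held 12.5, 0.92, 9.22, 0.20 and 0 RPKM, which placed the double deletion near the control, at a difference of -0.13. ΔadmB libraries held 35.9, 0.33, 4.87, 14.8 and 6.36 RPKM and differed from the control by 1.34 (adjusted p = 0.74).

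The gene prm1 (AO090003001100), named for a yeast protein that acts in plasma membrane fusion of mating cells, fell by a smaller amount. It was at 12.8, 9.19, 12.2, 10.3 and 8.68 RPKM in ΔadmAΔadmB and at 10.96, 31.6, 32.1, 43.8 and 39.4 RPKM in ΔadmA. ΔadmA replicate 1 lay among the double deletion values and the other 4 lay above all of them. The difference was -1.37 (SE 0.30, adjusted p = 0.020). With 12.3, 26.9, 17.9, 19.4 and 24.6 RPKM in the control, the double deletion mean lay below the control range (difference -0.83, adjusted p = 0.96). ΔadmB was also low, at 8.77 to 15.5 RPKM, and differed from the control by -0.76 (adjusted p = 0.60). The call of prm1 was lost, at adjusted p = 0.051 to 0.062, without any 1 of ΔadmAΔadmB replicates 2, 4 and 5 and ΔadmA replicates 2 to 5.

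The gene fmaF (AO090010000026), whose symbol is that of a gene of the fumagillin cluster of Aspergillus fumigatus, was at 92.2, 32.3, 143, 19.2 and 11.4 RPKM in ΔadmAΔadmB and at 471, 267, 201, 148 and 122 RPKM in ΔadmA. Only ΔadmAΔadmB replicate 3 reached into the ΔadmA range. The fall was -2.41 (SE 0.60, adjusted p = 0.046). Control libraries held 95.1, 102, 199, 206 and 46.9 RPKM, and the double deletion mean lay below them, at a difference of -1.49 (adjusted p = 0.96). ΔadmB held 30.5 to 90.6 RPKM, a difference of -1.29 (adjusted p = 0.61). This call was the least stable of the 4, being lost in 21 of 36 alternative fits, among them each of those leaving out 1 of ΔadmAΔadmB replicates 2, 4 and 5 or any 1 ΔadmA library.

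**Figure D2:**
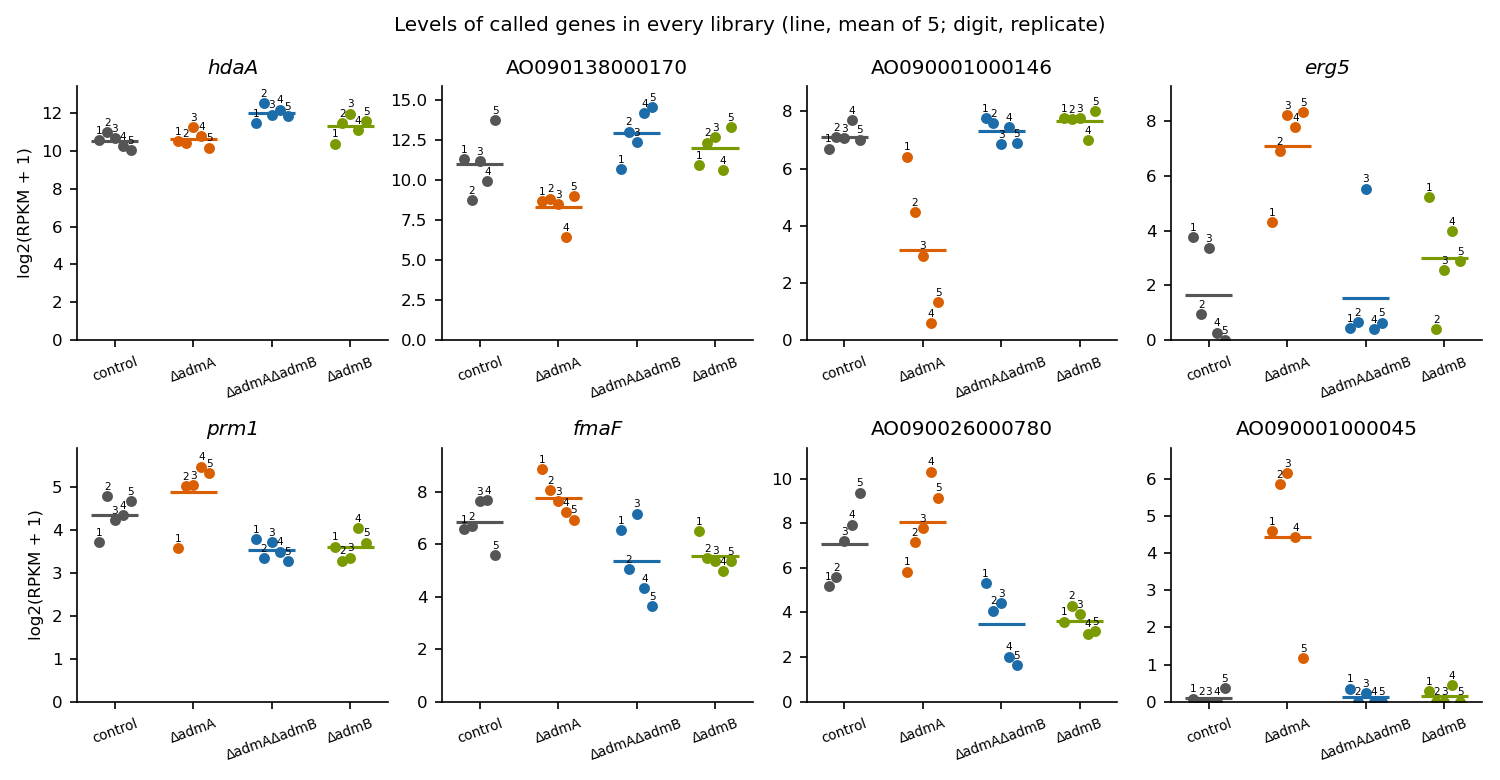
Levels of the 4 called genes with a symbol and of 4 called genes without one, as log2(RPKM + 1), in the control, ΔadmA, ΔadmAΔadmB and ΔadmB; each digit is the replicate number of 1 library and each line is the mean of 5. In hdaA ΔadmA sits with the control, in prm1, fmaF and AO090026000780 the means of the double deletion and ΔadmB lie below that of the control, and in erg5, AO090001000146 and AO090001000045 the double deletion sits with the control.

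Among called genes without a symbol and without overlap between the strains, AO090138000170 rose most. It was at 1617, 8268, 5186, 18455 and 24183 RPKM in ΔadmAΔadmB and at 408, 454, 358, 83.9 and 515 RPKM in ΔadmA, so that its lowest double deletion value was above the highest ΔadmA value. The difference was 4.67 (SE 0.87, adjusted p = 0.0083). The control ran from 421 to 13624 RPKM, a range that holds the double deletion mean, although the means differed by 1.97 (adjusted p = 0.96). AO090001000146 was at 216, 192, 114, 175 and 118 RPKM in ΔadmAΔadmB and at 84.6, 21.4, 6.74, 0.50 and 1.497 RPKM in ΔadmA, a rise of 4.16 (SE 0.75, adjusted p = 0.0064). The control held 103 to 206 RPKM, and the double deletion was near it (difference 0.20). ΔadmA replicate 1, at 84.6 RPKM, was not far below that range, and the other ΔadmA libraries were at 0.50 to 21.4 RPKM.

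The largest fall without overlap was in AO090026000780, at 38.5, 16.0, 20.5, 3.06 and 2.13 RPKM in ΔadmAΔadmB and at 56.0, 142, 220, 1284 and 568 RPKM in ΔadmA. The difference was -4.56 (SE 0.90, adjusted p = 0.012). Here the double deletion was below the control, which held 35.3, 46.8, 146, 245 and 665 RPKM (difference -3.56, adjusted p = 0.79). The ΔadmB libraries were similarly low, at 7.30 to 18.8 RPKM, and differed from the control by -3.45 (SE 0.90, adjusted p = 0.59). AO090001000045 behaved otherwise. It was at 0.28, 0, 0.18, 0 and 0 RPKM in ΔadmAΔadmB and at 23.3, 57.7, 70.6, 20.6 and 1.27 RPKM in ΔadmA, a difference of -4.33 (SE 0.61, adjusted p = 0.0018). No control library exceeded 0.29 RPKM and no ΔadmB library 0.37 RPKM, so its transcript was above these traces in ΔadmA alone. The double deletion was near the control. Of the 10 compared libraries only those of ΔadmA reached 1 RPKM. AO090001000045 thus met the filter through ΔadmA alone, which fixed its lack of overlap. AO090138000170, AO090001000146, AO090026000780 and AO090001000045 did not pass with the spread from the 10 compared libraries alone (limma adjusted p = 0.080 to 0.13).

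Called genes often lay beside each other. In the gene order of the reference, 67 of the 192 (34.9%) had another called gene at most 2 places away, as did 567 of 10212 placed and tested genes (5.55%). In 6 runs of at least 3 called genes, with at most 1 uncalled gene between neighbours, 23 of the 192 were found, and within each run all called members moved in the same direction. Genes that lie together can share reads where their models overlap, and the files do not state how such reads were counted.

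A pair of runs fell. The 5 tested genes from AO090102000477 to AO090102000482 all fell, by -1.80 to -2.07, with no overlap between the strains in any of them. The first of them stood at 32.8, 21.6, 39.2, 18.1 and 13.3 RPKM in ΔadmAΔadmB, at 73.1, 140, 178, 99.5 and 58.1 RPKM in ΔadmA and at 17.6 to 37.7 RPKM in the control. In 4 of the 5 genes the double deletion was near the control, and the fifth, AO090102000478, was below it (difference -1.07). Of the 4 tested genes from AO090026000768 to AO090026000771, 3 fell, by -1.14 to -2.82, without overlap and with the double deletion near the control. AO090026000771 was at 0.48, 2.74, 3.08, 0.43 and 1.56 RPKM in ΔadmAΔadmB and at 32.9, 12.8, 13.5, 13.9 and 13.6 RPKM in ΔadmA. It was highest in ΔadmA replicate 1. The call of AO090026000768, the other end of this run, was lost in 20 of the 35 alternative fits that tested it.

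The other 4 runs rose. The 4 genes from AO090001000145 to AO090001000148 rose by 2.30 to 4.17 and were all near the control. At AO090001000145 the double deletion held 3.76, 6.99, 5.01, 11.7 and 10.4 RPKM, ΔadmA held 2.91, 1.07, 0.09, 0.28 and 0 RPKM and the control held 4.41 to 10.6 RPKM. The 3 genes from AO090026000002 to AO090026000004 rose by 3.24 to 3.88. In this run ΔadmA replicate 1 was at the control level, with a mean of -0.15 relative to the control, while replicates 2 to 5 were at -3.34, -4.10, -4.76 and -4.56. AO090026000004 shows it, at 378, 28.3, 21.8, 6.54 and 12.6 RPKM in ΔadmA, 373 to 548 RPKM in ΔadmAΔadmB and 397 to 440 RPKM in the control, which put the double deletion mean above that narrow range by a difference of 0.12 between means.

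From AO090103000494 to AO090103000499, 5 of 6 genes rose, by 0.65 to 2.08. The last of them was at 782, 578, 648, 590 and 354 RPKM in ΔadmAΔadmB, at 330, 182, 151, 110 and 43.6 RPKM in ΔadmA and at 504 to 885 RPKM in the control. In 2 of the 5 the double deletion was near the control and in 3 it was above, by at most 0.26 between means over the run. The 3 genes from AO090138000170 to AO090138000172 rose by 1.97 to 4.75. Their double deletion means were within the control range and 0.94 to 1.97 above the control mean, with control replicate 5 at 2.04 above that mean and the other 4 controls at -1.41 to 0.31. The values of the gene that opens this run are given above.

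**Figure D3:**
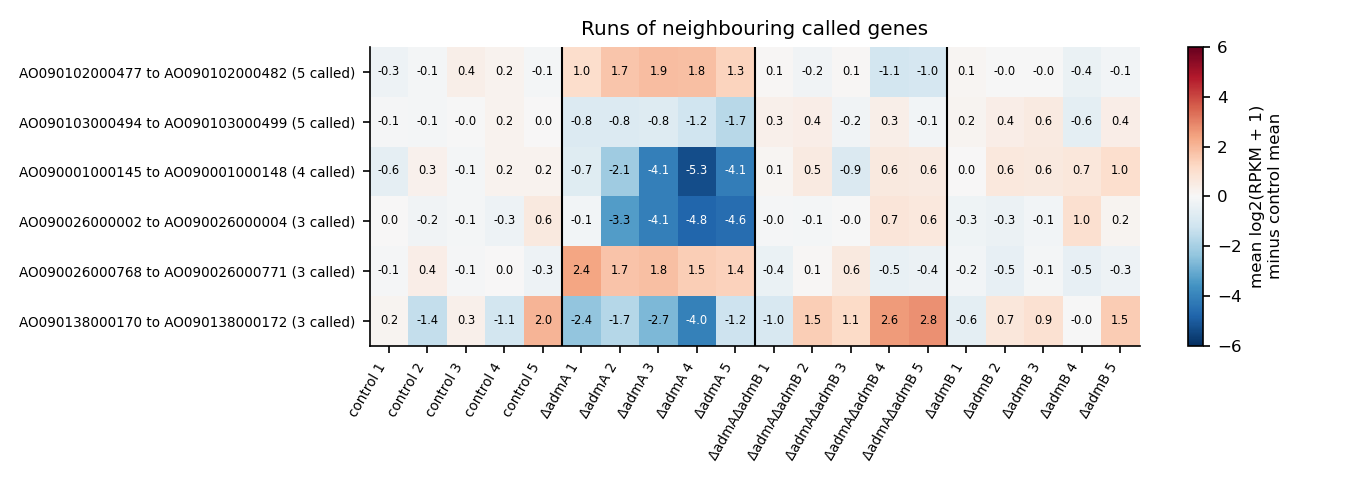
Mean log2(RPKM + 1) of the called genes of each of the 6 runs, minus the control mean, in the 20 libraries; colour gives the difference and each row is 1 run named by its first and last gene. The 5 ΔadmA columns lie outside the control columns in 4 of the 6 runs; the exceptions are ΔadmA replicate 1 in the run from AO090026000002, at -0.15, and ΔadmA replicate 5 in the run from AO090138000170, at -1.22.

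Beyond the calls, the 10 genes with a symbol and the smallest p in each direction include 9 higher and 7 lower in ΔadmAΔadmB that did not pass. On the higher side, vtc4, named for an enzyme that makes polyphosphate at the vacuole, was at 191, 129, 154, 127 and 62.5 RPKM in ΔadmAΔadmB and at 84.2, 74.1, 60.4, 44.1 and 61.7 RPKM in ΔadmA (difference 0.96, 95% interval 0.36 to 1.57, adjusted p = 0.12). Replicate 5 of the double deletion lay among the ΔadmA values, and without it the gene passed (adjusted p = 0.030). The double deletion mean was below the control range of 145 to 307 RPKM. The forkhead gene fhpA did not overlap between the strains, at 290 to 524 RPKM against 106 to 289 RPKM, with the double deletion near the control (difference 1.00, adjusted p = 0.19). The kynurenine 3-monooxygenase gene bna4, of NAD synthesis from tryptophan, differed by 1.29 (adjusted p = 0.14), and the GDP-mannose transporter gene gmtA by 1.38 (adjusted p = 0.21), both near the control. In bna4 the difference between ΔadmB and the control was of like size, at 1.17 (adjusted p = 0.59). Of the others, pps1 differed by 0.50 and was above the control, while mpt (0.55), tpcD (0.86), the F-box gene fbx15 (1.86) and egl3 (2.48) were near it, at adjusted p = 0.11 to 0.17. Of these, tpcD passed without ΔadmA replicate 1 (adjusted p = 0.017), as bna4 did without ΔadmA replicate 5 (0.042).

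On the lower side, the siderophore transporter gene mirC was at 129, 123, 95.7, 67.1 and 61.9 RPKM in ΔadmAΔadmB and at 173, 178, 202, 192 and 251 RPKM in ΔadmA. The groups did not overlap, the difference was -1.10 (SE 0.28, adjusted p = 0.057), and the double deletion was near the control range of 75.9 to 235 RPKM. Genes named for the gliotoxin cluster were also on this side. The gene gliI was listed at 0.18, 0, 0.38, 0 and 0 RPKM in ΔadmAΔadmB and at 1.23, 11.7, 18.5, 1.70 and 1.05 RPKM in ΔadmA (adjusted p = 0.060), without overlap. Its difference was -2.17, and -4.42 with a pseudocount of 0.1, and it passed in 10 of 35 alternative fits, among them those with pseudocounts of 0.1 and 0.5, median centring and quantile normalization. The control was listed at 0 in 3 libraries and reached 3.77 RPKM in replicate 4, and the double deletion was near it. Of the 10 compared libraries only those of ΔadmA reached 1 RPKM. The gene gliI thus met the filter through that strain alone, which fixed its lack of overlap. The gene gliK differed by -0.76 (adjusted p = 0.12), again near the control. The regulator gene fmpR was at 0.65 to 1.97 RPKM in ΔadmAΔadmB and at 0.24, 7.07, 10.8, 23.9 and 33.0 RPKM in ΔadmA, with replicate 1 below every double deletion library (difference -2.24, adjusted p = 0.098; 0.00062 without that replicate). It too was near the control. The gene loc1, named for a yeast factor of ribosome assembly and mRNA localisation, did not overlap, at 53.6 to 121 RPKM against 144 to 232 RPKM (difference -1.03, adjusted p = 0.12), and was near the control. The gene sclB differed by -1.38 (adjusted p = 0.13) and was near the control. With 1 library left out, sclB passed without ΔadmAΔadmB replicate 3 (adjusted p = 0.024), gliK without ΔadmA replicate 4 (0.041), gliI without control replicate 4 or ΔadmA replicate 1 or 5 (0.024 to 0.043), and mirC without control replicate 3 or 4 or ΔadmAΔadmB replicate 1 (0.036 to 0.047).

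The 18 gene lists hold only genes with a symbol, and so do not cover 188 of the 192 called genes. Of the lists, 4 held a called member, 1 each. Among all 698 tested genes with a symbol 4 were called (0.573%), and the median difference over all tested genes was -0.01. In secondary metabolism, fmaF was the called member among 10 tested, 8 of 10 differences were negative and the median was -0.90. Its members spread from fmaF at -2.41 to fmaE at 0.49 (adjusted p = 0.71), and the double deletion was near the control in 9 of the 10. In ergosterol synthesis, erg5 was the called member among 20, with 8 positive and 12 negative differences and a median of -0.06. Next to it in that list, erg4A, named for a sterol C-24 reductase that acts after the C-22 desaturase, differed by 1.14 (adjusted p = 0.33; 0.031 without ΔadmA replicate 1) and was above the control. In ΔadmB erg4A differed from the control by 1.33 (adjusted p = 0.59). The gene erg4, of like name and in the same list, differed the other way between ΔadmAΔadmB and ΔadmA, at -0.32 (adjusted p = 0.75), and was near the control. Chromatin modification had hdaA among 16 members (median 0.05), and rpdA, another histone deacetylase gene, differed by 0.06 (adjusted p = 0.94) and was near the control. Cell fusion and mating had prm1 among 10 (median -0.14), and the pheromone receptor gene preB differed by 0.59 (adjusted p = 0.28), near the control.

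No member of the wall and growth lists passed. Chitin synthesis had 9 negative differences among 12 members (median -0.27). Its largest rise was in chsC, at 0.53 (adjusted p = 0.84), near the control. The largest fall was in chsG, at -0.58 (adjusted p = 0.57), below the control. On the lower side csmB, a chitin synthase gene with a myosin-like domain, was at -0.43 (adjusted p = 0.45), also below the control. There chsB was at -0.46 (adjusted p = 0.79), near it. Glucan synthesis had 8 among 13 (median -0.16), and its α-1,3-glucan synthase genes differed in sign, ags1 at -1.58 (adjusted p = 0.34) and ags3 at 0.92 (adjusted p = 0.24), both near the control. For ags1, ΔadmA held 6.57 RPKM in replicate 1 and 46.7 to 93.3 RPKM in the others, while the double deletion held 6.44 to 23.6 RPKM, and without that replicate ags1 passed (adjusted p = 0.046). Cell wall integrity signalling had 12 negative differences among 14 (median -0.20), with the MAP kinase gene mpkA at -0.31 (adjusted p = 0.55) near the control. Conidiation had 9 among 15 (median -0.19), from ayg1 at -1.70 (adjusted p = 0.90) to catA at 0.55 (adjusted p = 0.88), and wetA, which acts in the maturation of conidia, differed by 0.23 (adjusted p = 0.64); all 3 were near the control.

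Genes for breaking down plant polysaccharides had no member past the threshold either. Of 12 tested, 8 differences were negative, the median was -0.80, and xlnR, the activator of xylanase genes, had the smallest p on that side, at -0.47 (adjusted p = 0.42), near the control. In this list eglD (-0.83), xlnD (-0.77) and cbhC (-1.25) had adjusted p-values of 0.73 to 0.85 and were near the control. The largest rise was in aglA, at 1.28 (adjusted p = 0.79), also near the control. Iron and siderophore genes had 13 negative differences among 18 (median -0.16), ribosome biogenesis 14 among 21 (median -0.13) and translation 10 among 13 (median -0.10). Secretion and protein folding had 10 positive and 11 negative (median -0.03), with bipA, the chaperone of the endoplasmic reticulum, at -0.28 (adjusted p = 0.92) and near the control. The largest rise in that list was in alg13, at 0.85 (adjusted p = 0.28), above the control. Proteases, of which 6 were tested, spanned -0.50 to 0.18 (median 0.03). Medians were -0.08 for 6 genes of polyphosphate and vacuole, -0.09 for 14 of the cytoskeleton, -0.02 for 5 of autophagy and -0.01 for 14 of carbon and energy metabolism.

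**Figure D4:**
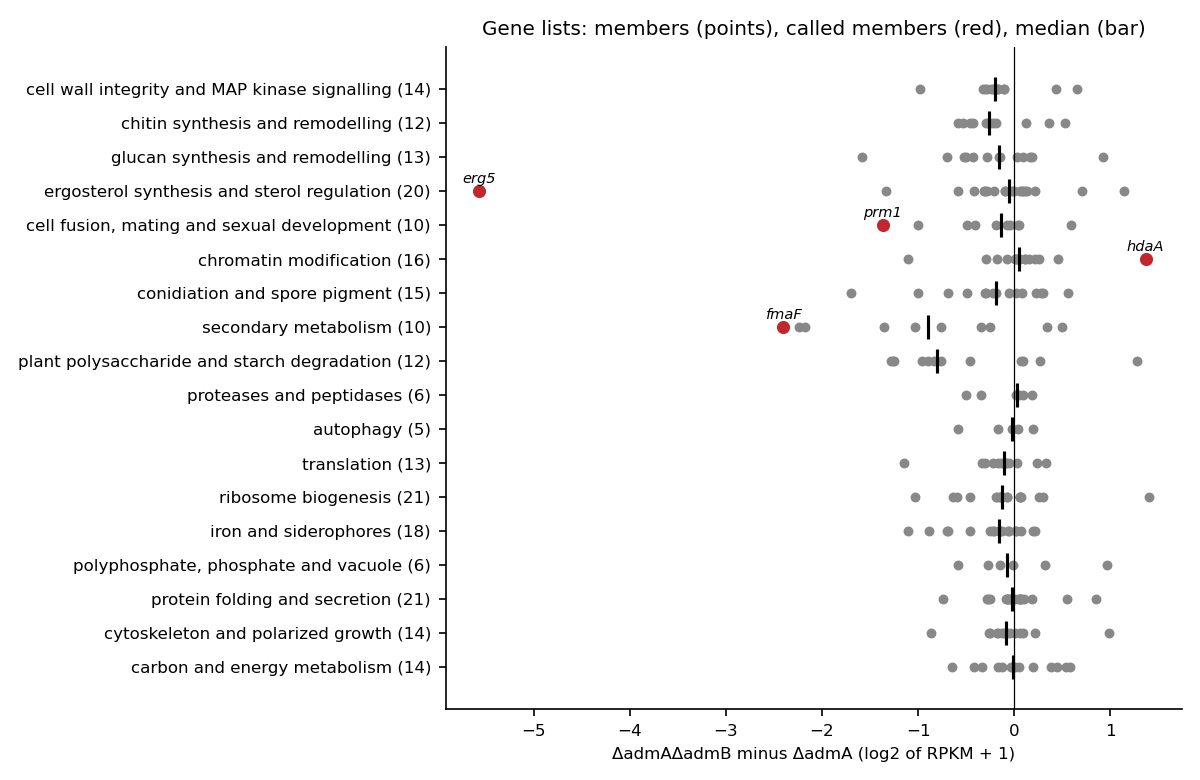
Difference between ΔadmAΔadmB and ΔadmA, in log2(RPKM + 1), of each tested member of the 18 lists; points are genes, red points are called genes, bars are list medians and the number tested is in parentheses. The called members are erg5, prm1 and fmaF to the left of 0 and hdaA to the right, and most members lie within 1 log2 unit of 0.

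The same deletion of admB can be read in a strain that keeps admA, from ΔadmB against the control, which shares no library with the comparison above. No gene passed there (limma, 0.0%; 832 genes at an unadjusted p under 0.05, 8.14%, smallest adjusted p = 0.59). Among the 192 genes called in the ΔadmA background, 156 (81.2%) had the same sign in ΔadmB against the control, as did 5735 of all tested genes (56.1%). At an unadjusted p under 0.05, 33 of the 192 had the same sign and 2 the opposite sign, beside 571 and 261 of all tested genes. The median difference there was 0.31 in the 93 higher genes and -0.37 in the 99 lower genes. These are not comparable in size with 1.78 and -1.60 against ΔadmA, since the genes were chosen for their difference in that contrast.

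Whether the effect of admB loss depends on admA is the interaction, the difference between ΔadmAΔadmB and ΔadmA less that between ΔadmB and the control. No gene passed in this test (limma, 0.0%), with 675 genes at an unadjusted p under 0.05 (6.6%) and a smallest adjusted p of 0.12, in AO090102000479. Among the 192 genes 148 were at an unadjusted p under 0.05, but the interaction contains the libraries that chose them. For erg5 the interaction was -6.91 (SE 1.60, adjusted p = 0.22) and for AO090001000045 -4.39 (SE 0.86, adjusted p = 0.12). For hdaA it was 0.58 (95% interval -0.29 to 1.44), for prm1 -0.61 (SE 0.42), for fmaF -1.11 (SE 0.85) and for AO090026000780 -1.11 (SE 1.27), at adjusted p = 0.84 to 0.90. These intervals are wide, so neither dependence on admA nor its absence was shown for these 4 genes. Without ΔadmA replicate 1, 62 genes passed the interaction, among them erg5 (adjusted p = 0.029), AO090001000045 (0.036), fmpR (0.043) and AO090026000004 (1.8e-05). Over the called genes that library was the ΔadmA library nearest the control, so leaving it out tends to widen the contrast. These passes are given as a description and do not replace the fit with all libraries, in which no gene passed.

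**Figure D5:**
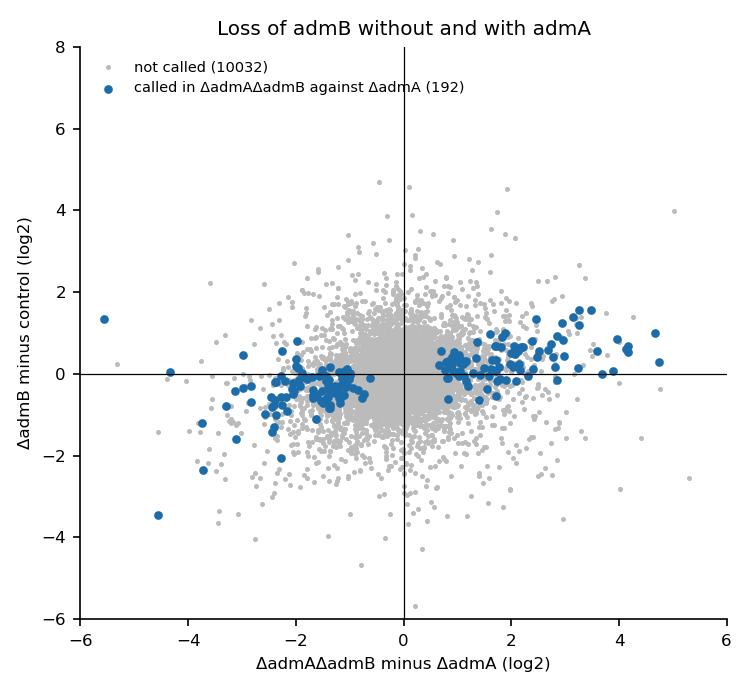
Each tested gene by its log2 difference between ΔadmAΔadmB and ΔadmA (horizontal axis) and between ΔadmB and the control (vertical axis); the 192 called genes are blue and the others grey. Of the called genes, chosen by the horizontal axis, 156 have the same sign on both axes.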

How the data were processed

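RNA of 20 libraries was measured by RNA-seq. The authors deposited RPKM per gene, per the file headers. TopHat2 2.0.9, Cufflinks 2.1.1, CASAVA 1.8.2 and FastQC 0.10.1 are named in the submitters' processing notes. Their roles, the build and the gene models are not given in the sources. All 12074 identifiers matched the RefSeq table of A. oryzae (assembly ASM18445v3), which gave 714 symbols and the gene order.

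Values were used as log2(RPKM + 1), without a count model because RPKM are not counts. With limma 3.58.1 (R 4.3.3), a mean for each strain was estimated over the 20 libraries together (eBayes with a trend, two-sided, Benjamini-Hochberg over 10224 genes, threshold 0.05), and the code was tested on simulated data. Exact permutation tests used scipy 1.17.1. The members and lists were chosen with earlier results of these data known. Named genes were admA, pyrG, called genes with a symbol, the 10 genes with a symbol and smallest p per direction, the 2 largest rises and falls without overlap among other called genes, the extremes by t of each list, and the ends of runs. Other members of lists and runs were named after their values were seen. Alternatives covered the pseudocount, filter, scaling, weights, spread, library set, replicate block and each library left out, and, chosen after seeing the data, the first principal component as a covariate. One gene that the rule names is not reported here.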

Additional observations from a re-analysis of the deposited data

Results flagged for a closer look

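In 70 groups of 5 libraries, those of ΔadmAΔadmB and ΔadmA for 35 genes, 6 held a library far from the other 4. The limit was Dixon's criterion at 95%, a gap over range above 0.71 on log2(RPKM + 1). Chance gives about 1 in 20 groups. Levels below are in RPKM, on which the gap over range differs. The 6 were 2 values in ΔadmA replicate 1, 2 in ΔadmAΔadmB replicate 3, 1 in ΔadmA replicate 4 and 1 in ΔadmAΔadmB replicate 2. In erg5, ΔadmAΔadmB replicate 3 stood at 45.13 RPKM and the other 4 libraries at 0.3214 to 0.5854 RPKM. In prm1, ΔadmA replicate 1 stood at 10.96 RPKM and the others at 31.56 to 43.78 RPKM. In AO090026000771, ΔadmA replicate 1 stood at 32.89 RPKM and the others at 12.83 to 13.92 RPKM. In AO090001000148, ΔadmAΔadmB replicate 3 stood at 209.6 RPKM and the others at 691.8 to 1057 RPKM. In AO090138000170, ΔadmA replicate 4 stood at 83.86 RPKM and the others at 357.8 to 514.5 RPKM. In mpt, ΔadmAΔadmB replicate 2 stood at 6.109 RPKM and the others at 4.807 to 5.113 RPKM.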

How the results depend on the processing

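None of the 36 alternatives changed the sign of any of the 192 genes it tested. In some of them, such as those leaving out a control or ΔadmB library, the difference cannot change. The others use libraries that chose the genes, so the kept signs are no independent evidence. The alternatives are not given for aglA, alg13, chsC, chsG and erg4. Of the other genes given by name, 5 that were not called turned. These were fmaE (-0.33), chsB (0.38), ayg1 (0.46) and rpdA (-0.068) in library set 2 alone, and catA (-0.048) in set 1 alone. In rpdA the sign also turned without ΔadmAΔadmB replicate 5 (range of -0.021 to 0.12 leaving out 1 library). The count of 192 (93 higher, 99 lower) moved to 126 (57 lower) with a filter at a mean of 10 RPKM, 6 (1 and 5) with the spread from the 10 compared libraries, 405 (177 and 228) with sample quality weights, 2 (1 and 1) in library set 1, 4 (1 and 3) in set 2, and 514 (259 and 255) with the first principal component as a covariate; the cause was not tested. Leaving out 1 library gave 100 to 302 genes, 51 to 141 higher and 43 to 161 lower. The call of erg5 was lost in 3 alternatives (adjusted p = 0.0027 to 0.51), hdaA in 6 (0.010 to 0.50), prm1 in 10 (0.00016 to 0.61) and fmaF in 21 (9.1e-05 to 0.55). Same-numbered libraries of the 2 strains deviated together at correlations of 0.35, 0.11, 0.04, 0.23 and 0.39, and 4 of 5 double deletion libraries correlated best with their own number. The main fit did not use the numbers as a pairing, and the labels do not say whether a shared number marks a shared batch. A structure shared by number would thus be left in the spread of that fit. With the replicate block 283 genes passed, 144 higher and 139 lower, 189 of them among the 192. Leaving aside aglA, alg13, chsC, chsG and erg4 again, of the genes given by name fmpR (adjusted p = 0.025) and sclB (0.039) passed with the block and not without it. The interaction, at 0 genes, gave 62 without ΔadmA replicate 1, 63 with weights, 3 with set as a covariate, 1 and 8 in sets 1 and 2, and 1 without ΔadmA replicate 5. Depth is unknown, so a listed 0 sets no limit.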
